A study of Mus musculus with 7 samples.

Results

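The 10 genes described here are adipocyte genes read out in libraries of mouse adrenal gland: Ucp1, Cidea, Otop1 and Adrb3, known from brown fat, and Adipoq, Plin1, Cfd, Lep, Retn and Adig, known from white fat or from adipocytes in general. They were chosen by measured values from the 35976 gene symbols of the deposited table, as fat genes that were near 0 before birth and high from 2 weeks of age. Their rise up to 2 weeks is therefore given as a description, with no test. All 10 passed the filter on low values, an average normalized count of 10 or more, as did 16720 genes in all. Every tissue came from C57BL/6J mice, an inbred laboratory strain, with no treatment named. The 7 libraries of total RNA were 1 pool each: E18.5 with 40 glands of undetermined sex, P1 (postnatal day 1) male with 16, P1 female with 22, 2-week male and 2-week female with 6 each, and 12-week male and 12-week female with 4 each. With 1 pooled library per group, the spread between animals was not measured, and the labels name only the adrenal gland, so that fat around the gland is not a labelled tissue.

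Fat cells store triglyceride in a lipid droplet and release it on sympathetic stimulation through beta-adrenergic receptors. Brown adipocytes burn that fat in mitochondria uncoupled by UCP1 and are abundant around the adrenal and kidney of young mice, whereas white adipocytes hold a single large droplet and secrete hormones such as leptin, adiponectin and, in mice, resistin. White fat depots expand after weaning, and brown depots can take on a white appearance with age or warmth.

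Before the values are given, 3 features of the libraries bear on them. Total reads in genes lay between 15184210 and 23551289 per library. The library labelled P1 female also held transcripts of 4 Y-linked genes, at 21.0% (median) of their P1 male level. In the female pools of 2 and 12 weeks that share was 0.083% and 0.020%, so a P1 sex difference compares libraries and not clean sexes. The adrenal markers (10 genes such as Cyp11a1, Star and Th, whose products make steroids and catecholamines) were read in every library and summed to between 211702 and 802939 normalized counts. Markers of neighbouring organs were also present: the 10 skeletal muscle genes summed, male pool first, to 36082 at E18.5, 72142 and 142999 at P1, 343.4 and 12488 at 2 weeks, and 92.3 and 88.2 at 12 weeks. The 8 liver genes summed to between 262723 and 380260 up to P1, to 13123 and 34280 at 2 weeks and to 454.4 and 432.2 at 12 weeks. The 8 kidney genes stood at 2490 to 8960 at P1 and at 60.9 or fewer from 2 weeks, and the 7 exocrine pancreas genes at 6104 in P1 male against 3.4 or fewer from 2 weeks. The part of these tissues in the results below was not tested. All are bulk pools, in which fewer cells of a type and less RNA per cell cannot be told apart.

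**Figure D1:**
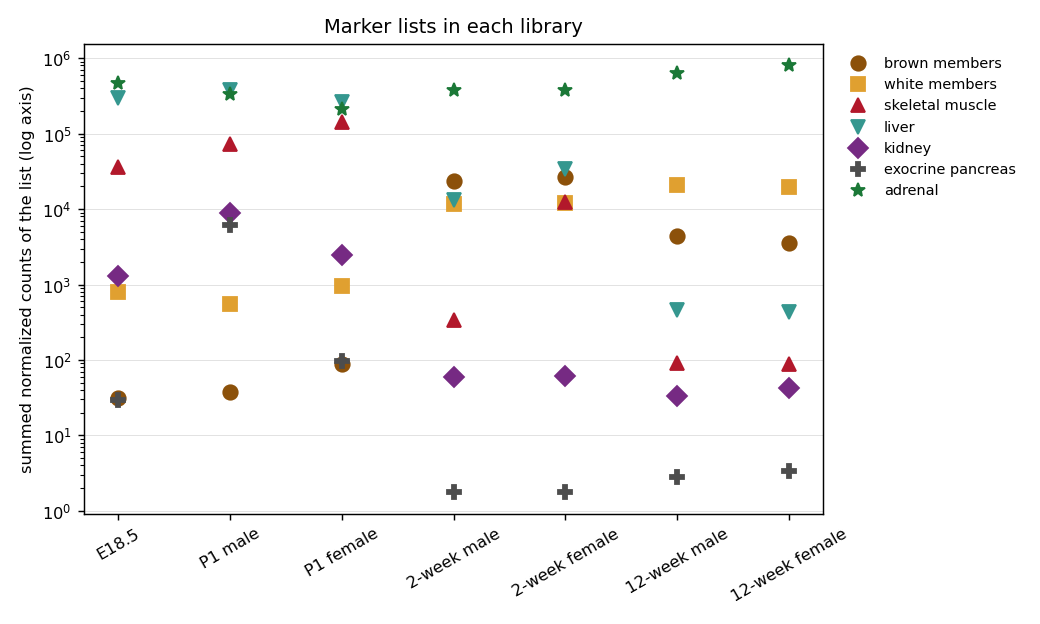
Summed normalized counts (log axis) of the brown members, the white members and 5 marker lists in each of the 7 libraries, 1 point per list and library. The brown members peak at 2 weeks, the white members are highest at 12 weeks, and the muscle, liver, kidney and pancreas lists are lowest from 2 weeks on.

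The sequence just upstream of the start site is shown for 4 members that stood for the patterns below: Ucp1 and Plin1, which were highest at 2 weeks, and Retn and Lep, which were highest at 12 weeks. Each line gives the 250 bases before the RefSeq start (GRCm38.p6), read 5′ to 3′ on the gene's strand, with capitals for matches to 3 motifs searched on both strands, AGGTCA (nuclear receptor half-site), TTGCNNAA (a site of the C/EBP type) and TGACG (part of a cyclic AMP response element). The windows are chr8:83290098-83290347 on the plus strand for Ucp1, chr7:79732777-79733026 on the minus strand for Plin1, chr8:3655520-3655769 on the plus strand for Retn and chr6:29059971-29060220 on the plus strand for Lep.
Ucp1: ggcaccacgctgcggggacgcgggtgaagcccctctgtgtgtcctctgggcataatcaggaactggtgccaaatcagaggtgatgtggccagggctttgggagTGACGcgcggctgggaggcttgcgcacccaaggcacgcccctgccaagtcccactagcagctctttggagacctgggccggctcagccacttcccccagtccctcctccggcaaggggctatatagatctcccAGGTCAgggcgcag
Plin1: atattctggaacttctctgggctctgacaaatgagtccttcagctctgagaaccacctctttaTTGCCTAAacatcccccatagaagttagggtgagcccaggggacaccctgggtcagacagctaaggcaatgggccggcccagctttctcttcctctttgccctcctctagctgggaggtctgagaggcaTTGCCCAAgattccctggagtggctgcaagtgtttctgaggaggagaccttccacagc
Retn: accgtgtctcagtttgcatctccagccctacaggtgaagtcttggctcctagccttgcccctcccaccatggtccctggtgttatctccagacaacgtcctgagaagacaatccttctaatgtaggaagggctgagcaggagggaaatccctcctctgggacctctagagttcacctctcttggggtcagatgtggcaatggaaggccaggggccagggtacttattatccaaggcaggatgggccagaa
Lep: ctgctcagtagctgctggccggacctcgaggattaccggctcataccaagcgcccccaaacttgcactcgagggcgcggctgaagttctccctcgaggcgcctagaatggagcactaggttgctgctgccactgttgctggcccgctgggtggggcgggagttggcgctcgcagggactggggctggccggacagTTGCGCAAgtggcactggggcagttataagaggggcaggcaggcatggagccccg
In the Ucp1 window TGACG lay at -147 to -143 and AGGTCA at -14 to -9, counted from the start site. Plin1 held TTGCNNAA at -187 to -180 and at -58 to -51, Lep held it at -55 to -48, and Retn held none of the 3 motifs. Of the 8 members with a RefSeq window read here, 2 held AGGTCA, 2 TTGCNNAA and 1 TGACG, and none held TATAAA, the TATA box, which was also searched. Of all 32851 windows of that length, 14.0% held AGGTCA, 9.56% TTGCNNAA, 17.8% TGACG and 12.4% TATAAA, and the members' counts are a description against those shares. A match is a string of letters, not a shown binding site, and these libraries hold no measure of binding.

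The brown fat genes, with 1 exception, were highest at 2 weeks. Ucp1 (ENSMUSG00000031710.4, chromosome 8, 83290352 to 83298452, GRCm38) encodes the mitochondrial uncoupling protein that defines brown fat. Its normalized count was 7.56 at E18.5, 3.27 and 24.3 at P1, 19373 and 21706 at 2 weeks, and 2705 and 2197 at 12 weeks, the male pool given first here and in each pair below. The libraries fell into 3 separate ranges, with the 2-week pair highest, the 12-week pair between, and E18.5 and P1 at or below 24.3. From P1 to 2 weeks the male libraries differed 5919-fold (95% counting interval 2311 to 21725, from 4 reads at P1) and the female libraries 894-fold (590 to 1427). Counting intervals here and below cover the sampling of reads only, since PCR copies were not marked and no pool was repeated.

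From 2 to 12 weeks Ucp1 fell in both sexes, 7.16-fold in the male libraries (6.84 to 7.51) and 9.88-fold in the female libraries (9.43 to 10.4). The fitted change was -3.07 ± 0.62 (SE) on the log2(normalized count + 1) scale, with an adjusted p of 0.0226. That fit was made with limma over all 16720 genes in the 6 postnatal libraries, with age and sex as terms, 2 residual degrees of freedom and Benjamini-Hochberg adjustment. The same fit gives every adjusted p below unless another is named, and the members were picked with these values known, so their calls describe them and are not independent evidence.

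Cidea (ENSMUSG00000024526.9, chromosome 18, 67343604 to 67367785) encodes a lipid droplet protein of brown adipocytes. It read 18.48 at E18.5, 33.5 and 62.9 at P1, 3753 and 4187 at 2 weeks, and 1107 and 966.2 at 12 weeks. The order of the ages was that of Ucp1, with no overlap between P1, 2 weeks and 12 weeks. Its E18.5 level rested on 22 reads, so it was low before birth and not absent. Cidea fell 3.39-fold in male (3.14 to 3.66) and 4.33-fold in female libraries (4.03 to 4.67) from 2 to 12 weeks, a fitted -1.94 ± 0.27 (SE), adjusted p 0.00656.

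Otop1 (ENSMUSG00000051596.13, chromosome 5, 38275972 to 38304217) encodes otopetrin 1, a proton channel expressed in brown fat. It had 0 reads at E18.5 and in P1 male, where the floor of 3 reads stands at 2.52 and 2.45 normalized counts, and 1 read in P1 female. It then stood at 323.8 and 394.4 at 2 weeks and at 188.7 and 131.2 at 12 weeks. All 4 later libraries lay far above the early ones, at least 132-fold from P1 to 2 weeks in the male libraries when P1 is put at 3 reads. The 12-week libraries lay below the 2-week ones, but the fitted difference of -1.18 ± 0.45 (SE) did not pass the test (adjusted p 0.124). It passed in DESeq2 and without the 12-week male library.

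Adrb3 (ENSMUSG00000031489.15, chromosome 8, 27225776 to 27250616, minus strand) encodes the beta-3 adrenergic receptor, through which noradrenaline drives lipolysis and heat production in both brown and white fat of mice. Its counts were 5.04 at E18.5, 0.818 and 1.10 at P1, 35.6 and 37.9 at 2 weeks, and 412.5 and 209.3 at 12 weeks. Unlike Ucp1, Cidea and Otop1, it was highest at 12 weeks in both sexes. The rise from 2 weeks was 11.6-fold in the male (8.31 to 16.6) and 5.52-fold in the female libraries (3.94 to 7.88). The fitted change was 2.97 ± 0.45 (SE), adjusted p 0.00878. Both P1 values are single reads, so the P1 to 2 weeks ratio of 43.5 in the male libraries has a counting interval of 7.37 to 1760.

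**Figure D2:**
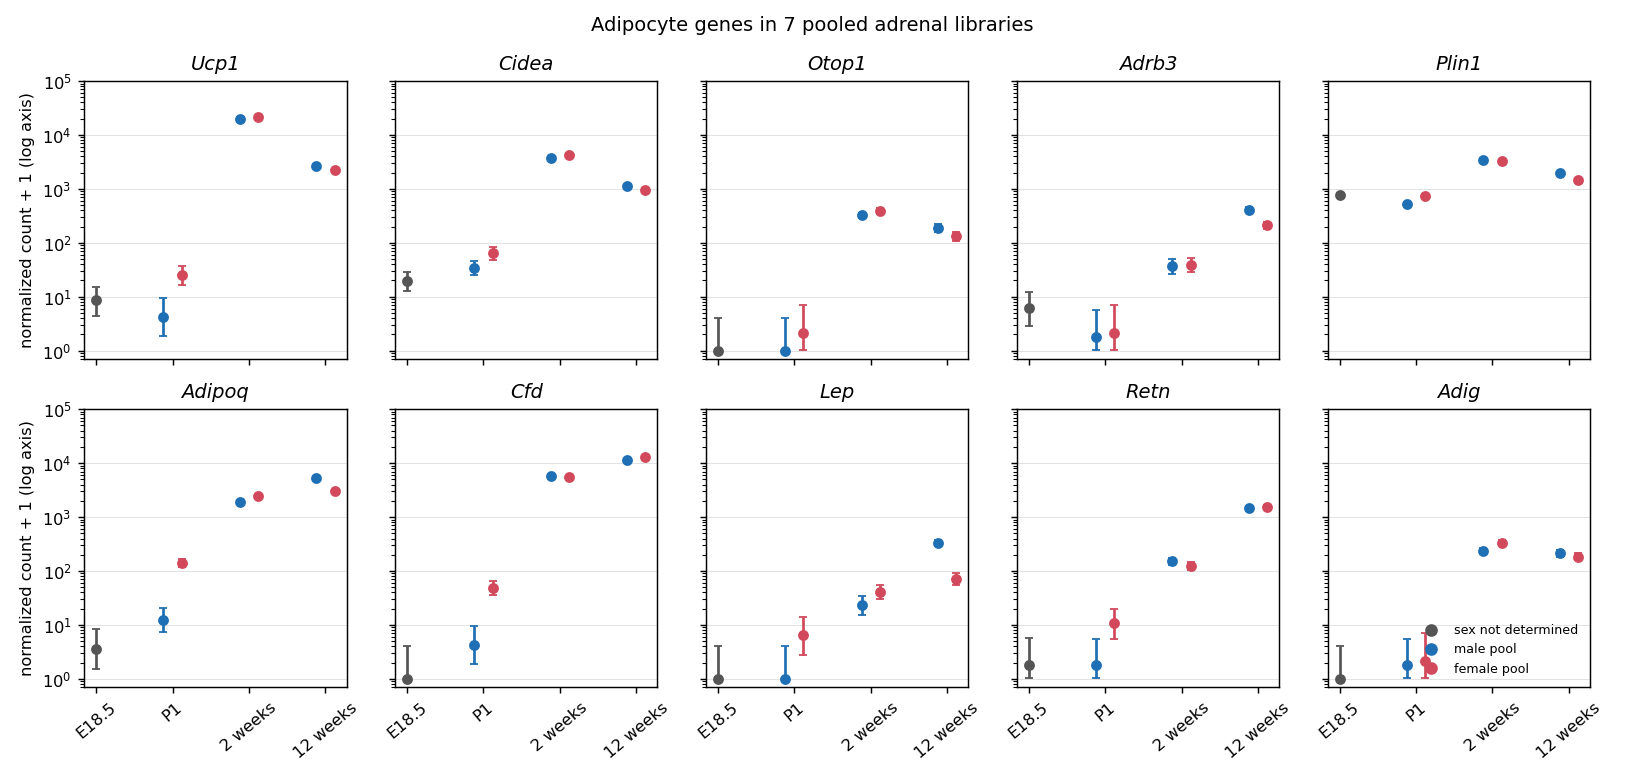
Normalized count + 1 (log axis) of each of the 10 genes by age, 1 point per pooled library with its 95% Poisson counting interval, grey for E18.5, blue for male and red for female pools. All genes but Plin1 lie at or under 142.4 up to P1; Ucp1, Cidea and Otop1 peak at 2 weeks, and Adrb3, Adipoq, Cfd, Lep and Retn peak at 12 weeks.

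The white and general adipocyte genes divided into those highest at 2 weeks and those highest at 12 weeks. Retn (ENSMUSG00000012705.16, chromosome 8, 3655770 to 3660110) encodes resistin, a hormone of mouse white fat. It had 1 read at E18.5 (0.84), 1 read in P1 male (0.818) and 9 in P1 female (9.93), then 151.2 and 123.5 at 2 weeks and 1446 and 1562 at 12 weeks. Each later pair lay wholly above the pair before it. Retn rose 9.56-fold in male (8.12 to 11.3) and 12.7-fold in female libraries (10.6 to 15.2) from 2 to 12 weeks, a fitted 3.45 ± 0.66 (SE), adjusted p 0.0190, the largest fitted change of the 10 genes in either direction.

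Lep (ENSMUSG00000059201.12, chromosome 6, 29060220 to 29073877) encodes leptin, the satiety hormone whose level follows fat mass. It had 0 reads at E18.5 and in P1 male and 5 in P1 female (5.52), then 22.2 and 39.7 at 2 weeks and 334.2 and 70.1 at 12 weeks. The male 12-week library stood apart from all others. The change from 2 to 12 weeks was 15.0-fold in male (9.93 to 23.7) and 1.77-fold in female libraries (1.18 to 2.65). The fitted 2.33 ± 1.05 (SE) did not pass the test (adjusted p 0.181), and without the 12-week female library the adjusted p was 7.0e-04; without the 12-week male library the fitted value was 0.33.

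Cfd (ENSMUSG00000061780.6, chromosome 10, 79890853 to 79892655) encodes adipsin, a complement protease secreted by adipocytes. It had 0 reads at E18.5, then 3.27 and 47.5 at P1, 5783 and 5638 at 2 weeks, and 11416 and 13114 at 12 weeks. The 12-week pair lay above the 2-week pair, 1.97-fold in male (1.91 to 2.04) and 2.33-fold in female libraries (2.26 to 2.40). The fitted 1.10 ± 0.79 (SE) did not pass the test (adjusted p 0.381). It passed when either P1 library was left out, or both.

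Adipoq (ENSMUSG00000022878.5, chromosome 16, 23146536 to 23158028) encodes adiponectin, secreted by adipocytes of every depot. It read 2.52 at E18.5, 11.5 and 142.4 at P1, 1929 and 2408 at 2 weeks, and 5237 and 3026 at 12 weeks. The 12-week libraries were higher, 2.71-fold in male (2.57 to 2.86) and 1.26-fold in female (1.19 to 1.33), with a fitted 0.88 ± 0.89 (SE) that did not pass (adjusted p 0.539). Without the 12-week male library the fitted value was -0.47, and without the 12-week female library it was 2.24 with an adjusted p of 0.0146.

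Plin1 (ENSMUSG00000030546.14, chromosome 7, 79720218 to 79732903, minus strand) encodes perilipin 1, which coats the lipid droplet and gates lipolysis. It did not match the description of a gene absent before birth: 784.7 at E18.5, 530.2 and 738.4 at P1, 3497 and 3337 at 2 weeks, and 1998 and 1457 at 12 weeks. Its lowest library held 648 reads, and the P1 to 2 weeks ratio was 6.59 in male (6.07 to 7.18) and 4.52 in female libraries (4.16 to 4.91). From 2 to 12 weeks Plin1 fell 1.75-fold in male (1.65 to 1.86) and 2.29-fold in female libraries (2.15 to 2.44), a fitted -1.0 ± 0.23 (SE), adjusted p 0.0325. Without the 12-week female library Plin1 did not pass.

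Adig (ENSMUSG00000044405.4, chromosome 2, 158502612 to 158508198) encodes adipogenin, a small membrane protein of adipocytes. It had 0 reads at E18.5 and 1 read in each P1 library, then 236.6 and 331.7 at 2 weeks and 212.5 and 184.4 at 12 weeks. It was lower at 12 weeks beyond counting error in the female libraries (1.799-fold, 1.49 to 2.18) and not in the male ones (1.11-fold, 0.909 to 1.37). The fitted -0.50 ± 0.34 (SE) did not pass the test (adjusted p 0.353).

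In all, 2 of the 10 genes were called higher at 12 weeks than at 2 weeks (Retn and Adrb3), beside 5.40% of all genes tested. Another 3 were called lower (Ucp1, Cidea and Plin1), beside 9.89% of all genes tested, and 5 were not called. The median fitted change of the 10 was 0.19, against -0.03 over all genes. Without either one of the 2-week pools none of the 10 passed (adjusted p 0.0581 or more for each), and the calls over all genes went from 2557 to 532 without the male and 421 without the female pool. The fitted changes of the 5 kept their direction: without the male and without the female pool they were -2.59 and -3.56 for Ucp1, -1.84 and -2.03 for Cidea, -0.96 and -1.04 for Plin1, 2.73 and 3.20 for Adrb3, and 4.27 and 2.63 for Retn. With the 2-week and 12-week libraries alone, a fit in which neither P1 pool enters, 6 passed, the same 5 and Cfd.

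**Figure D3:**
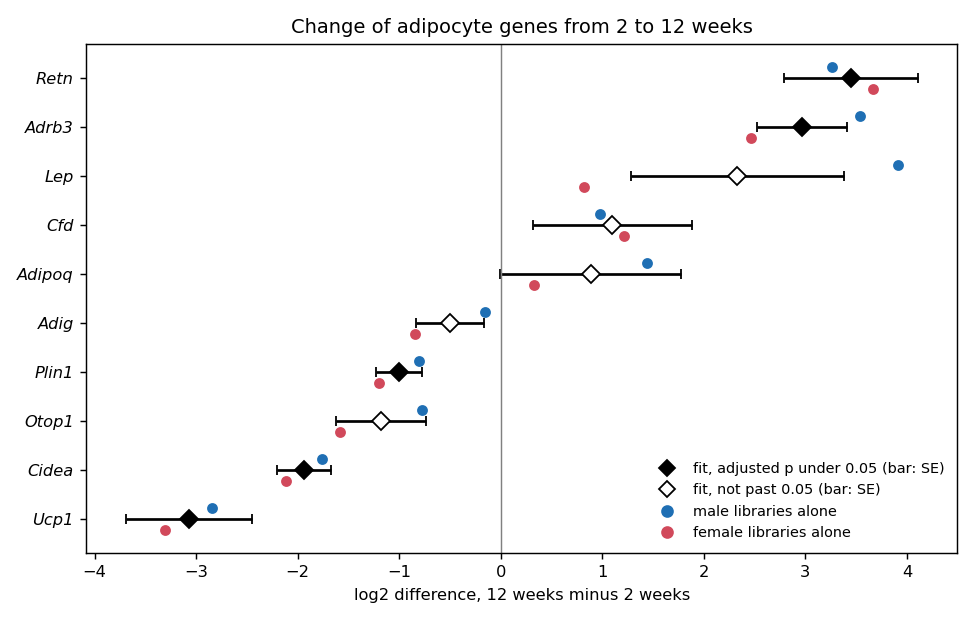
Change from 2 to 12 weeks (log2) for each of the 10 genes: diamonds are fitted values with their SE, filled where the adjusted p is under 0.05, and blue and red points are the male and the female libraries alone. Ucp1, Cidea and Plin1 lie below 0 and Retn and Adrb3 above it in both sexes.

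Set against each other, the brown members and the white and general adipocyte members changed order between 2 and 12 weeks. The mean log2(normalized count + 1) of Ucp1, Cidea and Otop1 minus that of the 6 white and general adipocyte genes was 0.41 at E18.5 and -0.35 and -1.01 at P1. It was 2.34 in both 2-week libraries, and -0.88 and -0.65 at 12 weeks. At E18.5 Plin1 had 934 reads and Cidea 22, while Ucp1 had 9, Adipoq 3, Retn 1, and Otop1, Cfd, Lep and Adig 0. The E18.5 value therefore rests on few reads for all members but Plin1. In P1 male, Otop1 and Lep had 0 reads and Retn and Adig 1 each. Adrb3, which both kinds of fat express, was left out of this difference, which changed by -3.22 in the male and -2.99 in the female libraries. Adipoq, Plin1, Cfd and Adig, which stayed in, are also genes of adipocytes of any kind, and only Lep and Retn were listed as white markers. The difference therefore sets brown fat genes against mostly general adipocyte genes, not against white fat genes alone. With no replicate pools and members picked for their values, it carries no test.

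The ratio of Ucp1 to Adipoq in normalized counts was 10.04 in 2-week male (95% counting interval 9.61 to 10.5) and 9.01 in 2-week female (8.66 to 9.38). By 12 weeks it was 0.517 in male (0.489 to 0.546) and 0.726 in female (0.684 to 0.770), so Adipoq was then the more abundant count. Divided by exon length, the ratio was 8.48 and 7.61 at 2 weeks and 0.436 and 0.613 at 12 weeks. Before 2 weeks it rested on few Ucp1 reads: 3.0 at E18.5 (0.749 to 17.2), 0.286 in P1 male (0.0685 to 0.910) and 0.171 in P1 female (0.103 to 0.269).

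**Figure D4:**
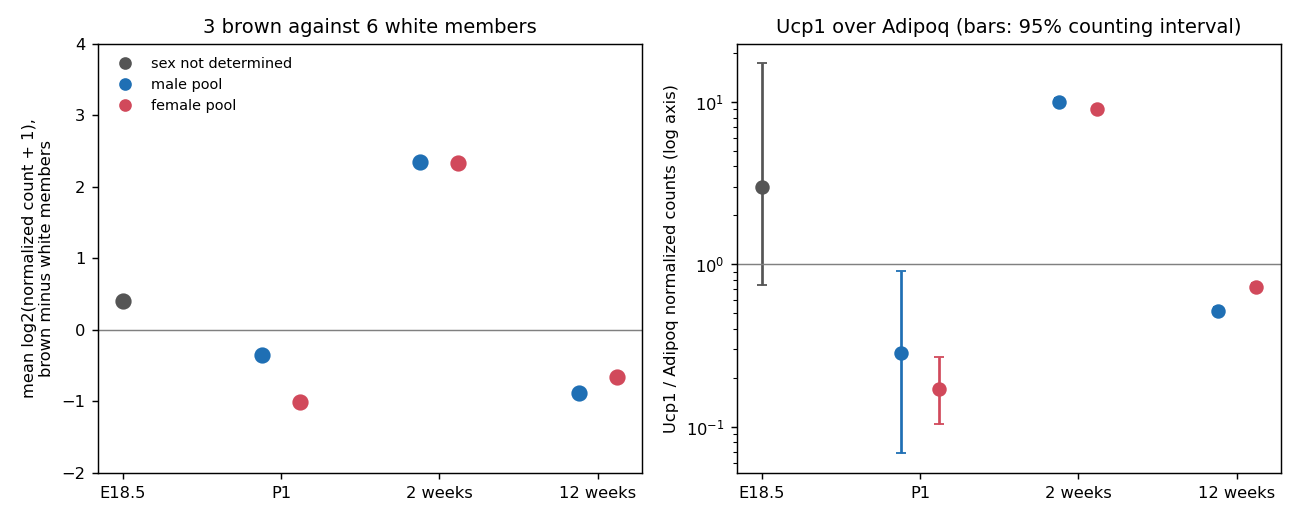
Left, mean log2(normalized count + 1) of 3 brown minus 6 white and general adipocyte members per library. Right, the ratio of Ucp1 to Adipoq normalized counts (log axis) with its 95% counting interval. Both 2-week libraries lie above the line of equal level in each panel and both 12-week libraries below it.

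On the scale of normalized counts per kilobase of exon, the order of the members also changed. At 2 weeks Ucp1 led with 11842 to 13268, followed by Cfd (6115 to 6272), Cidea (3366 to 3755), Adipoq (1397 to 1744), Plin1 (717.9 to 752.2) and Adig (292.1 to 409.5). Otop1 (94.1 to 114.6) and Retn (78.2 to 95.8) overlapped across the 2 libraries, as did Lep (6.63 to 11.8) and Adrb3 (10.5 to 11.2). At 12 weeks Cfd led with 12382 to 14223, ahead of Adipoq (2191 to 3793) and Ucp1 (1343 to 1654). Cidea (866.5 to 993.1) and Retn (915.6 to 989.5) then overlapped, Plin1 (313.4 to 429.8) and Adig (227.7 to 262.4) followed, and at the bottom Lep (20.9 to 99.6) overlapped both Adrb3 (62.0 to 122.2) and Otop1 (38.1 to 54.8), while Adrb3 lay wholly above Otop1.

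Between the sexes, no member was called over the 6 postnatal libraries (adjusted p 0.999 for each of the 10 in limma, with 0 of 10 under an unadjusted p of 0.05). Neither edgeR nor DESeq2 called any of them. Of all genes tested, 0.00598% were called, 1 gene, and 521 were under 0.05 unadjusted. The limma fit called 0 genes higher in male. Y-linked Ddx3y was thus not called, though it read 3793 and 1.76 at 2 weeks and 4285 and 1.13 at 12 weeks in male and female. This fit missed a known sex difference, so the lack of a call for the members does not show equal levels. At P1, 7 of the 10 were above 3 reads in at least 1 library. Their median male minus female difference in log2(normalized count + 1) was -2.59, against -0.02 over all tested genes above 3 reads. Each of the 7 was higher in the library labelled P1 female. At least 2-fold higher there were 5, Ucp1 at 7.42-fold (2.52 to 29.6), Adipoq at 12.4-fold (7.15 to 23.4), Cfd at 14.5-fold (5.27 to 55.6), Retn at 12.1-fold (1.68 to 532, from 9 reads and 1) and Lep at least 2.25-fold, beside 3.0% of all genes tested. In the same library skeletal muscle markers summed to 142999 against 72142 in P1 male, while kidney markers were lower there, 2490 against 8960; what part these played was not tested.

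At 2 weeks none of the 10 differed 2-fold between the libraries, beside 4.10% of all genes tested that were at least 2-fold apart. The widest ratio was that of Lep, 1.79-fold higher in female (1.07 to 3.04). In the same pair of libraries the muscle markers summed to 343.4 and 12488. At 12 weeks 8 of the 10 were higher in male and 2, Cfd and Retn, in female. Within counting error were Adig, 1.15-fold higher in male (0.918 to 1.45), and Retn, 1.08-fold higher in female (0.996 to 1.17). The share of all genes higher in each library was not counted, at P1 or at 12 weeks. The median male minus female difference in log2(normalized count + 1) was 0.38 for the members, against 0.02 over all tested genes above 3 reads. Genes read from the same pair of libraries are not separate observations. Lep alone was at least 2-fold apart, 4.76-fold higher in male (3.59 to 6.41), beside 4.20% of all genes at least 2-fold higher in that library, and Adrb3 was 1.97-fold higher (1.63 to 2.38). With totals scaled to be equal, Adrb3 also passed 2-fold. Relative to Adipoq, Lep was at 0.0638 of its count in 12-week male and 0.0232 in 12-week female.

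Other genes of the fat programme were taken from lists in which the members are not repeated. The thermogenic list holds 14 genes for brown fat mitochondria, fatty acid oxidation and their regulators, of which 12 passed the filter on low values. From P1 to 2 weeks 7 of the 12 were called higher and none lower, beside 5.89% of all genes called higher and 10.5% called lower. From 2 to 12 weeks 8 of the 12 were called lower and none higher, with a median fitted change of -1.77, beside 9.89% of all genes called lower, 5.40% called higher and a median of -0.03 over all genes. The 8 were Cox7a1 and Cox8b, subunits of cytochrome oxidase, Dio2, which activates thyroid hormone, the regulators Ebf2, Ppara and Ppargc1a, the fatty acid carrier Fabp3 and glycerol kinase Gk. Of these 8, Ebf2, Fabp3 and Ppargc1a were not called higher from P1 to 2 weeks (adjusted p 0.614, 0.713 and 0.316). The 4 not called from 2 to 12 weeks were Acot11, Elovl3, Kcnk3 and Prdm16. Elovl3 had a fitted 0.27 and Prdm16 -0.31, and Prdm16 lay between 124 and 222 in all 7 libraries.

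Cox7a1 read 36.1 at E18.5, 67.9 and 114.8 at P1, 1181 and 1695 at 2 weeks, and 243.3 and 327.0 at 12 weeks. Both 2-week libraries were highest and the fitted fall to 12 weeks was -2.32 ± 0.19 (SE, adjusted p 0.00136). Fabp3 read 127.7, 447.6 and 1635 in E18.5, P1 male and P1 female, 886.9 and 1046 at 2 weeks and 208.3 and 188.9 at 12 weeks in male and female, a fall of -2.27 ± 0.45 (SE, adjusted p 0.0207). Fabp3, Cox7a1 and Cox8b are also muscle genes, and the muscle markers were highest in P1 female; their part in the Fabp3 value there was not tested. Kcnk3, a potassium channel that the adrenal cortex also expresses, had the highest mean of the list, 13208 to 30712 over the 7 libraries, and was not called (0.39 ± 0.20 SE, adjusted p 0.226). Zic1, a marker of classical interscapular brown fat, lay at 13.2 or less in every library and at 0 in 2-week male and both 12-week libraries. Without either 2-week library, 3 of the 12 remained called lower (Cox7a1, Ebf2 and Ppara).

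Transcription factors that drive fat cell formation (7 genes) were called higher from P1 to 2 weeks for Pparg, Cebpa and Cebpb and lower for Rxra, beside 5.89% and 10.5% of all genes. Pparg, the master regulator of adipocytes, read 79.8 at E18.5, 112.9 and 102.7 at P1, 931.4 and 989.9 at 2 weeks, and 694.9 and 449.2 at 12 weeks. Its rise to 2 weeks was 3.14 ± 0.22 (SE, adjusted p 0.00159), and its change to 12 weeks, -0.78 ± 0.22 (SE), did not pass (adjusted p 0.0601). Of the 7 factors limma called 0 from 2 to 12 weeks, with 3 under an unadjusted p of 0.05. In the same comparison edgeR called 0 and DESeq2 called 1. Cebpb changed by -0.75 ± 0.30 (SE, adjusted p 0.141), and Srebf1, the most abundant, lay between 983.5 and 2600 in all libraries.

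Of the 8 lipid droplet and lipolysis genes, 6 were called higher from P1 to 2 weeks (5.89% of all genes) and 3 lower from 2 to 12 weeks (9.89% of all genes). Those 3 were Plin5, a droplet protein of oxidative tissue, the lipase Pnpla2 and its inhibitor G0s2. Plin5 read 313.1 and 406.7 at 2 weeks and 153.8 and 50.9 at 12 weeks in male and female, a fall of -2.0 ± 0.47 (SE, adjusted p 0.0346), and G0s2 fell by 1.75 on the log2 scale (SE 0.42, adjusted p 0.0368). Mgll, monoglyceride lipase, the most abundant, read 3563 and 4200 at 2 weeks and 3463 and 2978 at 12 weeks and was not called (adjusted p 0.308). Of the 10 genes for fatty acid uptake, glycerol and triglyceride synthesis, 9 were called higher from P1 to 2 weeks, beside the 5.89% of all genes. From 2 to 12 weeks 1, Gpd1, was called lower, a share near the 9.89% of all genes and so no result about the list. Gpd1, glycerol-3-phosphate dehydrogenase, read 586.5 at E18.5, 709.4 and 1152 at P1, 14589 and 16308 at 2 weeks, and 8484 and 7532 at 12 weeks. Aqp7, the glycerol channel of adipocytes, read 616.5 and 602.6 at 2 weeks and 345.3 and 139.2 at 12 weeks and was not called (-1.47 ± 0.54 SE, adjusted p 0.114), and Cd36, the fatty acid transporter, stayed between 8960 and 12184 over those 4 libraries. At E18.5, when Adipoq had 2.52 normalized counts, these 10 genes already read from 11.8 to 3180. The 8 lipid droplet and lipolysis genes then read from 1.68 to 1032. Which cells carried the changes of these 2 lists was not tested.

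Lipogenic enzymes went the other way from the thermogenic genes between 2 and 12 weeks: 4 of 7 were called higher (Fasn, Scd1, Acaca and Elovl6) and none lower, with a median of 1.10, beside 5.40% of all genes called higher and 9.89% lower. Fasn, fatty acid synthase, read 7316 and 6536 at 2 weeks and 54879 and 54185 at 12 weeks in male and female, a rise of 2.98 ± 0.18 (SE, adjusted p 7.03e-04). Scd1, which makes monounsaturated fatty acids, rose by 2.22 ± 0.23 (SE, adjusted p 0.00267), from 24665 and 26505 to 123708 and 115190, and Acaca by 1.61 ± 0.22 (SE, adjusted p 0.00627). Steroid-producing cells of the adrenal also express these enzymes, and which cells carried the change was not tested. Fasn had 8237 normalized counts at E18.5, when Adipoq had 2.52.

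Of the 8 listed genes of white depots and beige fat, 5 passed the filter. Of these 2 were called lower at 12 weeks than at 2 weeks, beside 9.89% of all genes, Nnat (neuronatin, 2709 and 2338 against 1436 and 718.4) and Tmem26 (601.3 and 629.0 against 366.3 and 237.6). At E18.5, when Adipoq had 2.52 normalized counts, Nnat already read 2537 and Tmem26 2185. Which cells carried their fall was not tested. Hoxc9, a positional gene of subcutaneous fat, lay at 17.8 or less from 2 weeks in all 4 libraries. For beta-adrenergic signalling limma called 0 of 5 from 2 to 12 weeks, with 3 under an unadjusted p of 0.05, while edgeR called 0 and DESeq2 called 2 lower. Adrb1, the beta-1 receptor, had 9.79 and 9.05 normalized counts at 12 weeks in male and female and was not called (adjusted p 0.127). Gnas, the stimulatory G protein, was the most abundant, with a fitted -0.75 ± 0.20 (SE, adjusted p 0.0539).

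Of the 7 genes of fat cell precursors, 3 were called lower from P1 to 2 weeks, beside 10.5% of all genes. From 2 to 12 weeks, when 5.40% of all genes were called higher and 9.89% lower, 1 was called higher, Ly6a (309.6 and 292.0 against 861.3 and 717.3, adjusted p 0.0264), and 2 lower, Pdgfrb and Cd34 (2461 and 2385 against 1706 and 1420, adjusted p 0.0359). Pdgfra, the most abundant receptor of precursors in the list, read 2374 and 2406 at 2 weeks and 2698 and 3289 at 12 weeks and was not called (adjusted p 0.186).

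The P1 to 2 weeks counts of these lists fell when a P1 or a 2-week pool was left out. The calls over all genes fell in the same fits, and from 2 to 12 weeks without a 2-week pool. Such falls are therefore not particular to these lists. Without the P1 male library none of their genes passed, and without the library labelled P1 female 2 of 12 thermogenic genes and 2 of 10 fatty acid uptake and triglyceride genes passed and none of the other lists. Without the 2-week male or the 2-week female library, 4 thermogenic and 3 fatty acid genes were called higher in either case, 3 and 4 lipid droplet genes, 2 lipogenic genes in either case, and none of the beta-adrenergic genes. The transcription factors called higher were then 1 and 2. From 2 to 12 weeks, without the 2-week male or the 2-week female library, 2 and 3 lipogenic genes passed, and none of the lipid droplet, fatty acid, white depot or precursor genes. With the 2-week and 12-week libraries alone, 8 thermogenic and 4 lipogenic genes passed, as before, but only 1 lipid droplet gene, 1 precursor gene and none of the fatty acid or white depot genes. Leaving out 12-week male gave 5 fatty acid genes lower, and leaving out 12-week female gave none, with 2 lipid droplet genes higher and 2 lower. For the step from P1, leaving out the 12-week female library raised the counts of lipogenic genes called higher and of precursor genes called lower. It raised the calls over all genes as well, so the rise is no result about these lists.

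**Figure D5:**
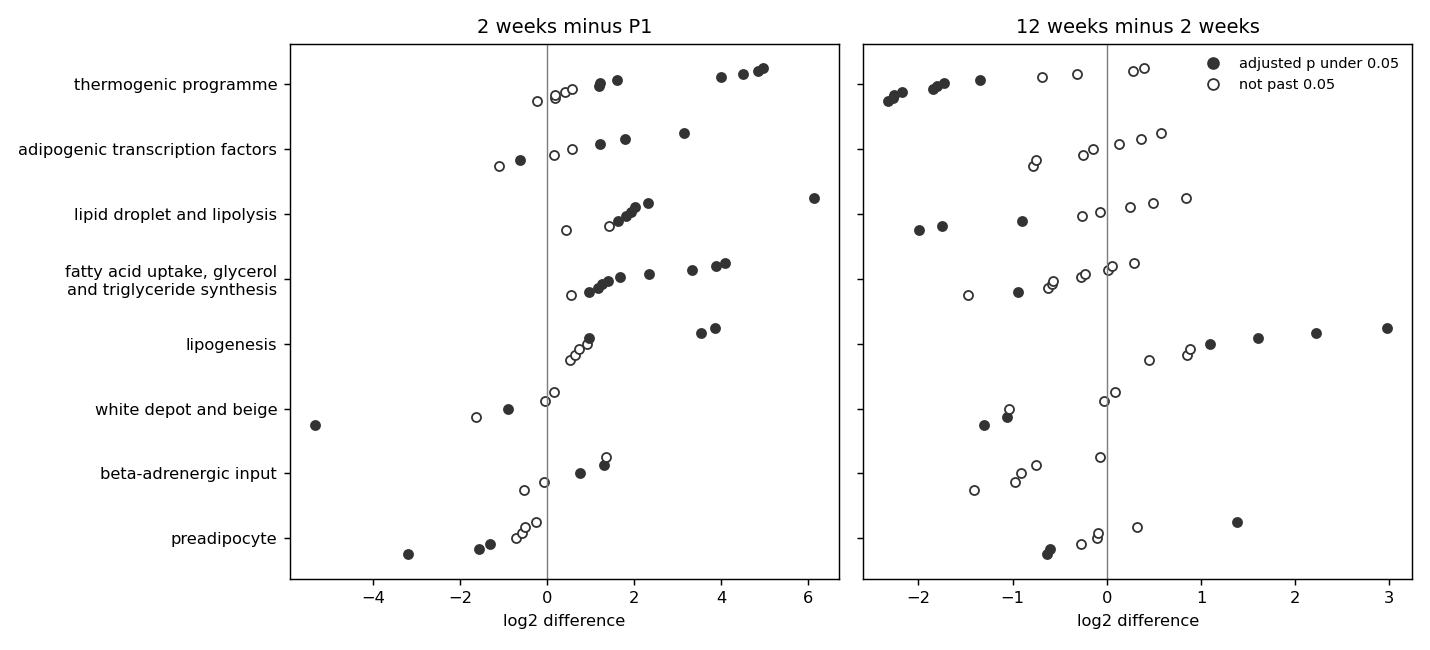
Fitted log2 differences of the genes in 8 fat-related lists, left from P1 to 2 weeks and right from 2 to 12 weeks, 1 point per gene and filled where the adjusted p is under 0.05. The thermogenic list lies mostly above 0 on the left and below 0 on the right, and the lipogenic list lies above 0 in both panels.

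The profiles of single members over the 7 libraries were alike among the 3 brown genes, with Pearson r of log2(normalized count + 1) at 0.99 for each pair of Ucp1, Cidea and Otop1 and at 0.77 between Adrb3 and Ucp1. Likeness was not limited to genes of 1 kind: r was 0.99 for Adig with Otop1, the highest of all pairs, and 0.99 for Cfd with Adipoq. Such r values are a description over 7 libraries that share their age structure. The members were picked for a shared rise to 2 weeks, so high r among them was largely built in. The lowest r of all pairs was 0.70, for Plin1 with Adrb3. The mean profiles used next carry the same rise. Outside the members, the 5 of 12246 genes with a mean of at least 100 that lay closest to the mean profile of Ucp1, Cidea and Otop1 were Gpd1 (r 0.999), Ptpn4 (0.996), 1500015O10Rik (0.994), Dio2 (0.993) and Acacb (0.991). The 5 closest to the mean profile of the white members were Cttnbp2 (0.998), Resp18 (0.996), Sik2 (0.996), Tmem56 (0.996) and Cflar (0.996). A high r does not mean a wide range: Gpd1 went from 586.5 at E18.5 to 16308 in 2-week female, whereas Ptpn4 went from 1916 at E18.5 to 3696 in 2-week male, and Cflar from 2221 to 3637 in 12-week male.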

How the data were processed

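Total RNA of 7 adrenal gland pools was sequenced. The deposited table, made by the authors, gives normalized counts under 35976 gene symbols. The submitters' processing notes name CASAVA 1.8.2, HISAT2 2.1.0, HTSeq 0.9.1, DESeq2 2.11.40.6 and mm10, with no role or setting. The use of strand and the annotation are not given in the sources used here, so overlapping genes could share reads. The values themselves show the unit: 100% of the deposited signal values were whole multiples (within 0.001 reads) of 1 step per library, so they are reads divided by 1 size factor. Reads recovered this way gave the counting intervals, exact binomial or Poisson at 95%, and a floor of 3 reads for genes with no read. The interval given for a pool value covers counting error only, and variation between animals and between pools was not measured. With 1 pool per age and sex, p-values rest on how far the pools depart from additive age and sex terms, not on repeated pools. A sex difference that changes with age counts as error there, as does any departure of the library labelled P1 female.

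The 16720 genes whose normalized count averaged 10 or more entered a limma fit (version 3.58.1, R 4.3.3) of log2(normalized count + 1), a scale that understates changes of low genes, with eBayes trend, 2-sided tests and a threshold of 0.05. The fit was tested on simulated counts with known changes. These held no sex difference that changes with age and no mixed pool, so that run cannot speak to such departures. Coordinates and exon lengths come from GENCODE M21, promoters from RefSeq. The members and gene lists were chosen with earlier results of these data known. Named genes are all 10 members and the 5 genes most like each profile. Up to 3 genes per list were also named (highest mean, largest change from 2 to 12 weeks). So were genes called, where their number was small, and the uncalled genes of the thermogenic list. For 1 gene that this rule names, the values are not reported here. Alternatives were other pseudocounts, filters and scalings, no trend, edgeR 4.0.16 and DESeq2 1.42.0 on recovered reads, fewer libraries, and each library left out in turn, where a lone pool is assumed to vary like the others. Additional alternatives were chosen after seeing the data: Plin1 left out of the brown and white difference, only the 2-week and 12-week libraries for the sex difference, and the list counts under each alternative.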

Additional observations from a re-analysis of the deposited data

Results flagged for a closer look

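Lep differed between the sexes in opposite directions at 2 ages. The male minus female difference in log2(normalized count + 1) was -2.71 at P1 (0 reads in male, 5 in the library labelled P1 female) and 2.24 at 12 weeks (239 reads in male, 62 in female). The difference between the ages was not tested, since each rests on 1 library per sex, and the P1 value rests on 5 reads in the library that also held Y-linked transcripts.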

How the results depend on the processing

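Of 160 alternative fits of the members' change from 2 to 12 weeks, 133 kept direction and status, called or not, 19 lost the call, 7 gained it and 1 reversed. The 19 losses fell on the 5 genes called as reported. These kept their call in 12 (Ucp1), 13 (Cidea), 13 (Adrb3), 11 (Plin1) and 12 (Retn) of 16 fits each. The 1 that reversed was Adipoq, which ranged from -0.47 to 2.24 with a library left out. Adig kept its direction and stayed uncalled in all 16. With all genes of mean above 0 in the fit, no gene was called: 0 of the members, 0 thermogenic genes, 0 genes for each age step (6036 unadjusted from 2 to 12 weeks, 6431 from P1) and 0 for sex. Without the trend, 1661 genes were called from 2 to 12 weeks (2557 as reported), 1672 from P1 to 2 weeks (2737 as reported), 0 for sex and 2 members (Adrb3 and Cidea). With the 2-week and 12-week libraries alone, 1113 were called between those ages and 4 for sex. With all postnatal libraries, edgeR called 0 and DESeq2 9 for sex. With 1 library left out at a time, the counts ranged from 421 to 3035 between 2 and 12 weeks, from 2 to 4461 from P1 to 2 weeks, from 0 to 51 for sex, from 0 to 6 members and from 3 to 9 thermogenic genes. The lowest age counts came without the 2-week female and the P1 male library, and the lowest member and thermogenic counts without either 2-week library. Scaling to equal totals shifted the median of all genes by -0.17 and gave 647 higher and 2515 lower from 2 to 12 weeks, against 903 and 1654; the members' calls were the same 5. It put 2 members 2-fold apart at 12 weeks. The cause of these differences was not tested.

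The fitted sex differences (male minus female), none of them called, turned sign in 28 of 160 fits. With the 2-week and 12-week libraries alone they were 0.068 for Ucp1, 0.019 for Cidea, 0.12 for Otop1, 0.24 for Adipoq, 0.71 for Lep and 0.089 for Retn. Otop1 was 0.055 by edgeR and 0.049 by DESeq2, and Lep 0.13 with a pseudocount of 5 and 0.52 by edgeR. With 1 library left out they ranged from -1.36 to 0.068 for Ucp1, -0.52 to 0.019 for Cidea, -0.68 to 0.12 for Otop1, -0.15 to 0.44 for Adrb3, -1.92 to 0.24 for Adipoq, -0.20 to 0.26 for Plin1, -1.76 to 0.71 for Lep and -1.35 to 0.089 for Retn. The brown minus white change was -2.78 (male) and -2.40 (female) without the most abundant gene of each kind, and -3.67 and -3.37 without Plin1.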

Other observations

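Macrophage genes, which mark resident immune cells of many tissues, were higher at 12 weeks than at 2 weeks: 6 of 7 were called higher by limma and none lower, beside 5.40% of all genes called higher, with a median fitted change of 1.41, against -0.03 over all genes. Their summed normalized counts (male, then female) were 3762 and 4997 at 2 weeks and 10489 and 9679 at 12 weeks, so both 12-week libraries lay above both 2-week ones. At P1 the sums were 8814 in male and 9870 in the library labelled P1 female, when Retn had 1 and 9 reads. The E18.5 sum was 6728, so the 2-week libraries were the lowest. From P1 to 2 weeks 4 of the 7 were called lower and none higher, beside 10.5% of all genes called lower. The calls of this list were not counted under the alternative fits. Whether these genes were read from fat or from the gland was not tested.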
